A study of Mus musculus with 127 samples.

Results

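Transcript levels were compared between 16 erythroblasts from marrow in which Flvcr had been deleted and 11 erythroblasts from wild-type mice given erythropoietin (EPO). All 27 cells carried the class letter B and were picked by that label from the 127 single cells of the series, of which 48 were Flvcr-deleted, 31 EPO-treated and 48 wild-type. Every mouse was of the strain C57BL/6J. The labels give no age, sex, EPO dose or time, do not say how or in which cells Flvcr was deleted, and name no animal, so each group counted as 1 sample. For that reason no test was possible and no difference has a replicate check. Every SD below is over cells and describes those cells only. The 10 wild-type class B cells, untreated, are given as a reference beside some genes.

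FLVCR1 carries heme out of the cell. In early red cell precursors heme is made before globin protein is abundant, and cells without the exporter are known to hold too much free heme, with anaemia in the animal. EPO is the hormone that keeps erythroid precursors alive and dividing, and it acts through its receptor and the transcription factor STAT5. As erythroblasts mature they make globin, leave the cell cycle and clear most other transcripts. Cells of a group that lie at different points of this course therefore differ in many genes.

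The level of a gene in a cell was log2(RPKM + 1), where RPKM is a read number divided by transcript length and library depth. The difference was the mean over Flvcr-deleted cells minus the mean over EPO-treated cells, and a gene was kept where the mean of both group means was at least 1. A difference of 2 is a 4-fold difference on this scale, which understates differences of low genes. Of 2694 kept genes, 283 (10.5%) were lower by at least 2 in Flvcr-deleted cells and 26 (0.965%) were higher by at least 2. The median gene differed by -0.59, and 1909 genes (70.9%) lay below 0. No kept gene separated the groups completely: 0 genes had every Flvcr-deleted cell above every EPO-treated cell, and 0 had the reverse.

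The cells themselves were unlike in globin load. In Flvcr-deleted cells the globin genes took a share of all RPKM that ran from 0.32% through a median of 79.8% to 96.8%, and in EPO-treated cells from 17.0% through 45.8% to 82%. Near-identical globin copies each entered this share in full, so reads listed under several rows count more than 1 time and raise it. The Flvcr-deleted cells lay at both ends of that scale: 4 cells were under 5%, 4 between 45% and 85%, and 8 over 85%. No EPO-treated cell was under 5% or over 85%. The 8 cells over 85% had 647 to 1180 detected genes (RPKM of at least 1), and the 4 under 5% had 2463 to 3453. EPO-treated cells had 997 to 3989. The ranges of both measures overlapped between the groups.

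**Figure D1:**
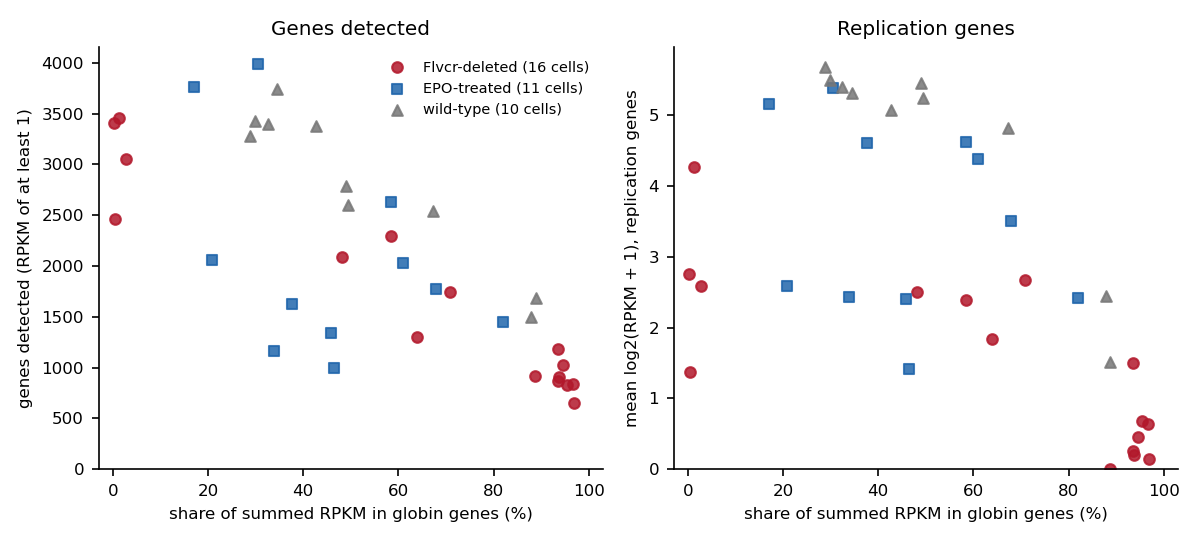
Each point is 1 class B cell. Its globin share of all RPKM (x axis, %) is set against the number of genes detected (left) and the mean level of the replication genes (right, log2). The 8 Flvcr-deleted cells with a globin share over 85% sit at the lower right of both panels, and 4 Flvcr-deleted cells sit at the far left.

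The 4 Flvcr-deleted cells under 5%, numbered 7, 13, 16 and 40, had Alas2 at 0. Alas2 is the first enzyme of heme synthesis in red cells. They held 11, 8, 11 and 9 of 15 erythroid markers. Hba-a1, alpha-globin, was at 9.87, 3.47, 2.47 and 2.07 in them, below the lowest of the other 23 cells (13.27). Epb4.2, a protein of the red cell skeleton, was at 0 in all 4, as in 13 of the other 23 cells, and Slc4a1, the band 3 anion exchanger, was at 0, 1.00, 0 and 0. Hemgn, an erythroid nuclear protein, was at 3.73, 0.32, 1.22 and 0, and Gata1, the master factor of the lineage, at 0 in cells 13 and 40. Gata1 was also at 0 in other cells of both groups, Hemgn in Flvcr-deleted cells 11 and 17, and Slc4a1 in EPO-treated cells 28 and 29. Ermap, a protein of the red cell membrane, was at 4.82, 7.38, 6.39 and 7.09 in the 4 cells. Car2, carbonic anhydrase, was at 10.84, 9.84, 11.48 and 10.65, and Rhag, part of the Rh complex of the red cell membrane, at 7.44, 7.32, 7.47 and 8.94, both within the range of the other cells. The 4 cells were at 0 or low in several markers of the lineage and held others. No cell of either group had 3 or more detected markers of granulocytes and monocytes, macrophages, B cells, T and NK cells, megakaryocytes, mast cells and their relatives, or stem and progenitor cells, and the 10 B-cell markers were at 0 throughout. Of 14 stem and progenitor markers, cells 7, 13, 16 and 40 held 1, 2, 1 and 1, and each other cell of both groups held 0 or 1. Many results below are also given without these 4 cells. In the EPO-treated group, cells 8, 12 and 23 stood apart: their lowest values, a measure of what 1 read is worth, were above 0.1 RPKM × kb, against at most 0.0689 in the other 8. That measure ran from 0.201 to 1.31 (median 0.330) in Flvcr-deleted cells and from 0.199 to 0.377 in wild-type cells. Its median was 0.0678 in EPO-treated cells. EPO-treated cells 8 and 23, at 0.278 and 0.259, lay within the Flvcr-deleted range, and all other EPO-treated cells lay below it. A larger value means that 1 read is worth more. The part of depth in the differences was not tested.

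The genes of DNA replication and nucleotide supply stood lowest of all 30 pathway lists with kept members. Of 43 kept members (53 in the table), 27 (62.8%, against 10.5% of all kept genes) were lower by at least 2 and none was higher by at least 2, with a median difference of -2.30 against -0.59 for all kept genes. Only 2 of the 43 lay above 0. Members of this list detected per cell ran from 0 to 42 with a median of 14.5 in Flvcr-deleted cells, and from 14 to 52 with a median of 30 in EPO-treated cells. Wild-type cells held 15 to 51, with a median of 44.5.

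Tk1, thymidine kinase, which salvages thymidine for DNA synthesis, was at 0 to 7.42 (median 0) in Flvcr-deleted cells and at 0 to 8.42 (median 7.54) in EPO-treated cells. It was detected in 5 of 16 (31.2%, exact 95% interval 11.0% to 58.7%) and 10 of 11 cells (90.9%, 58.7% to 99.8%). These intervals, here and below, cover counting error only. The difference of means was -4.88 (1.91 ± 3.06 against 6.79 ± 2.41, SD over 16 and 11 cells). Most Flvcr-deleted cells lay at 0, while the 5 that expressed Tk1 overlapped the EPO-treated cells. Wild-type cells were at 6.79 to 8.36 (median 7.40).

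The gene with the most negative difference of those ranked was 2810417H13Rik, also called Pclaf, which encodes a partner of the replication clamp PCNA. Its level was 0 to 6.10 (median 0) in Flvcr-deleted and 1.30 to 8.41 (median 7.64) in EPO-treated cells. It was detected in 5 of 16 and 11 of 11 cells. The difference was -5.65, and the groups overlapped through EPO-treated cells 8 and 23. Wild-type cells ranged from 2.00 to 8.07 (median 6.36).

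Rfc4, a subunit of the loader that places the clamp on DNA, was at 0 to 8.97 (median 0) against 2.84 to 8.86 (median 7.34), a difference of -4.21. Lig1, the ligase that joins fragments of the lagging strand, was at 0 to 5.26 (median 0.84) against 0.36 to 8.15 (median 5.96), a difference of -4.18. Mcm3, part of the replicative helicase, differed by -3.88 and was detected in 3 of 16 and 8 of 11 cells. The clamp gene itself, Pcna, differed by -3.88, with 0 to 9.02 (median 1.97) against 3.11 to 9.85 (median 7.50). In each of these 4 genes the Flvcr-deleted cells spread from 0 into the EPO-treated range. Uhrf1, which carries DNA methylation through replication, was more even in EPO-treated cells (5.83 to 8.09) than in Flvcr-deleted cells (0 to 7.92), with a difference of -3.75.

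**Figure D2:**
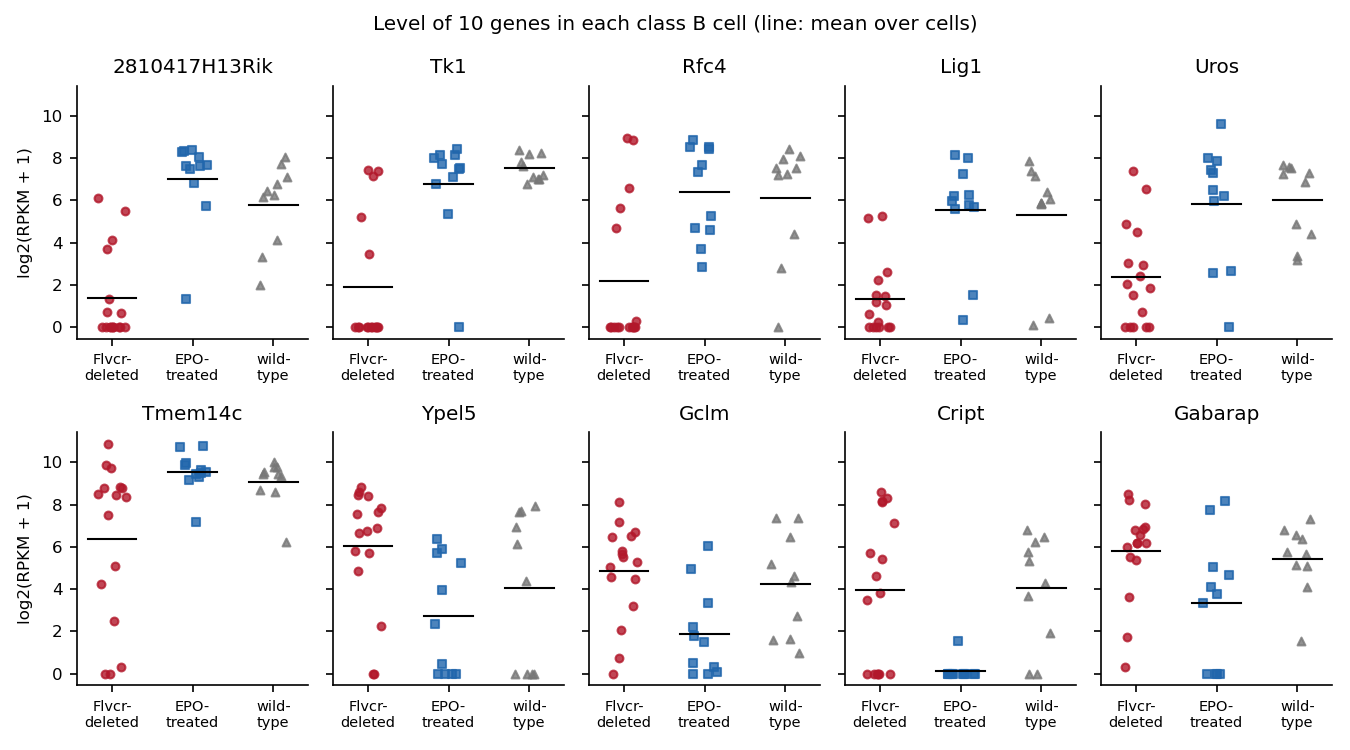
Level of 10 genes, log2(RPKM + 1), in each class B cell; horizontal lines are means over cells. For 2810417H13Rik, Tk1, Rfc4 and Lig1 most Flvcr-deleted cells lie at or near 0 below the EPO-treated cells, and for Cript 10 of 11 EPO-treated cells lie at 0.

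The deficit of replication transcripts kept its direction when cells were left out. Its median was -3.07 without the 4 Flvcr-deleted cells with Alas2 at 0, and -2.71 without EPO-treated cells 8, 12 and 23. Set against those 3 EPO-treated cells alone, it was -1.13 with all kept genes at -0.15. Among cells with a globin share of 45% to 85% (4 and 6 cells), it was -0.83 while all kept genes had a median of 0.48. There 12 of 43 members were lower by at least 2 and 2 were higher. Of all genes kept in that choice 266 were lower by at least 2 and 513 were higher. Their shares were not taken, so these counts cannot tell whether the list differed from all kept genes there. Within those cells Pcna differed by 0.09, so for that gene the direction turned, while Tk1 differed by -3.39, Lig1 by -2.21 and 2810417H13Rik by -3.82. Across cells the mean level of the list went with the globin share: Spearman's rho was -0.73 over the 16 Flvcr-deleted cells, -0.36 over the 11 EPO-treated cells and -0.90 over the 10 wild-type cells. Both quantities come from the same library, so this is a description only.

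Replication genes are known as targets of E2F factors, which switch on genes of S phase. A script searched the 250 bases before each start site, in the RefSeq promoters of GRCm38.p6, for TTTNNCGC on both strands. Of the 27 members lower by at least 2, 24 had an entry and 6 (25.0%) held the motif. The whole list, lower or not, held it in 9 of 35 members with an entry (25.7%), a like share. Of 2082 kept genes with an entry 10.9% held it, and 4.94% of all 27025 genes with a listed promoter did. A match is a description of letters and not a binding site. Mcm6 (difference -2.70) and Mcm5 (-2.30), subunits of the replicative helicase, are shown because they held more than 1 match, with the matches in capitals. The Mcm6 stretch is chr1:128359706-128359955 on the minus strand, with matches beginning 110, 106 and 47 bases before the start, and the Mcm5 stretch is chr8:75109259-75109508 on the plus strand, with matches beginning 153 and 149 bases before it. Matches that overlap on opposite strands share letters.
Mcm6: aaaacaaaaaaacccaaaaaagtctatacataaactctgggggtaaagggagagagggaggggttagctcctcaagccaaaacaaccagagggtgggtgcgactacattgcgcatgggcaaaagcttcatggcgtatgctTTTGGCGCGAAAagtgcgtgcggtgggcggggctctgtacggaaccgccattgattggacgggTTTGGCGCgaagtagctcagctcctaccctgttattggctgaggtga
Mcm5: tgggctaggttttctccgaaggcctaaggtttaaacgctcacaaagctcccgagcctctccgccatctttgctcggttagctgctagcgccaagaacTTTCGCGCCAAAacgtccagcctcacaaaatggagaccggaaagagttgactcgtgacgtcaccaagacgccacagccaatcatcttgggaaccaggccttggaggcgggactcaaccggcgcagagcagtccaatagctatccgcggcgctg

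Mitosis and spindle genes followed with a median of -1.36, and 15 of 52 kept members (28.8%, against 10.5% of all kept genes) were lower by at least 2. Cdca3, which promotes entry into mitosis, was at 0 to 8.92 (median 1.02) against 0 to 9.69 (median 7.10), a difference of -3.38. Fbxo5, which restrains the anaphase-promoting complex, differed by -3.20 and Cenpe, a kinetochore motor, by -2.84. In all 3 some Flvcr-deleted cells reached the EPO-treated range, and for Cenpe cell 1, at 6.98, lay above its highest value (6.60). The median of the list was -1.24 in cells with a globin share of 45% to 85% and -0.47 against EPO-treated cells 8, 12 and 23 alone.

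Heme synthesis genes were lower on balance, while the first enzyme lay near 0 or above it. Of 11 kept members of 16, 10 lay below 0, as did 70.9% of all kept genes, and 4 (36.4%, against 10.5%) were lower by at least 2. None was higher by at least 2, and the median was -1.44. Alas2 was at 0 to 10.70 (median 7.56) in Flvcr-deleted and 0 to 9.37 (median 6.00) in EPO-treated cells. Alas2 differed by 0.41, by -0.04 without EPO-treated cells 8, 12 and 23, and by -0.10 among cells with a globin share of 45% to 85%. Leaving out the 4 Flvcr-deleted cells at 0 brought it to 2.44. Those cells were picked by this gene's own value, so a rise had to follow. EPO-treated cell 28, also at 0, stayed in. Later steps lay on the other side. Uros, uroporphyrinogen III synthase, was at 0 to 7.41 (median 1.96) against 0 to 9.61 (median 6.47), a difference of -3.46. Urod, the decarboxylase that follows, differed by -2.12, and Fech, ferrochelatase, which puts iron into the ring, by -2.12. The ranges of all 3 overlapped from 0 upward. Leaving out EPO-treated cell 15 brought Urod to -1.82, and leaving out EPO-treated cell 12 brought Fech to -1.71. Without the 4 Flvcr-deleted cells with Alas2 at 0, Urod differed by -1.37 and Fech by -1.92.

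Tmem14c, which moves a heme precursor within mitochondria, was at 0 to 10.87 (median 8.41) in Flvcr-deleted cells and at 7.18 to 10.79 (median 9.56) in EPO-treated cells. The difference of means was -3.19 and that of medians -1.14: the upper Flvcr-deleted cells matched the EPO-treated ones, and the lower ones did not. Wild-type cells were at 6.24 to 10.02 (median 9.44). Among cells with a globin share of 45% to 85% Tmem14c differed by 0.37. Against EPO-treated cells 8, 12 and 23 alone, the median of the heme synthesis list was -0.02, with all kept genes at -0.15. In cells with 1000 to 2000 detected genes (4 and 5 cells) the list median was -0.07, with all kept genes at -0.20. In both choices the list was not lower than all kept genes.

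Of the genes of heme transport and breakdown, 5 of 12 were kept and 2 (40.0%, against 10.5% of all kept genes) were lower by at least 2. Mfsd7b, the table's name for Flvcr1, was listed at 0 in all 27 cells, so it checks neither label. A value of 0 in a single cell does not show that the gene was not expressed. Blvra, biliverdin reductase A, which acts after heme is opened, was detected in 3 of 16 and 8 of 11 cells and differed by -4.33. Its counterpart Blvrb was at 7.24 to 11.60 (median 9.88) and 0 to 10.95 (median 9.87), so the medians nearly coincided. Abcg2, an exporter of porphyrins, differed by -2.89, but by 0.34 against EPO-treated cells 8, 12 and 23 alone. Hmox1, the inducible heme oxygenase, was detected in 1 of 16 and 0 of 11 cells and was not kept.

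Of 6 adult globin rows, the 4 of beta-globin were higher on the mean in Flvcr-deleted cells and the 2 of alpha-globin lower, and the median of the list was 0.63. Near-identical copies gave almost the same difference (Hbb-b2 and Hbb-bt 0.627, Hbb-b1 and Hbb-bs 0.632), so the rows are not separate measures. Hbb-b1, an adult beta-globin row whose reads are shared with its near-identical copies, was at 8.26 to 17.96 (median 17.16) against 12.83 to 17.04 (median 14.24). The means differed by 0.63 (15.29 ± 3.64 against 14.65 ± 1.45, SD) and the medians by 2.92. The EPO-treated range lay inside the Flvcr-deleted one. Without the 4 cells with Alas2 at 0 the difference was 2.59. Wild-type cells had a median of 14.78. Hba-a1 differed by -0.62 in means and by 2.87 in medians, and its difference of means turned to 2.73 without those 4 cells. The 4 were the cells with the lowest globin share, so leaving them out had to raise both globin differences.

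Erythroid transcription factors had 13 kept members of 21, of which 2 (15.4%, near the 10.5% of all kept genes) were lower by at least 2 and none was higher by at least 2. The median was -0.72, and it turned to 0.59 among cells with a globin share of 45% to 85% and to 0.50 against EPO-treated cells 8, 12 and 23 alone. Gata1 was at 0 to 7.76 (median 0) in Flvcr-deleted and 0 to 8.67 (median 5.57) in EPO-treated cells. It was detected in 7 of 16 (43.8%, 19.8% to 70.1%) and 7 of 11 cells (63.6%, 30.8% to 89.1%), and in 10 of 10 wild-type cells. The difference of -2.06 was -1.60 without EPO-treated cell 1 and turned to 2.52 among cells with a globin share of 45% to 85%, and to 1.97 against EPO-treated cells 8, 12 and 23 alone. Hemgn was at 0 to 9.00 (median 4.46) against 2.94 to 10.06 (median 8.20), a difference of -3.56. Klf1, which acts with GATA1 at globin and other red cell genes, differed by -0.86, and by 0.28 against EPO-treated cells 8, 12 and 23 alone.

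Of the genes of EPO signalling, 4 of 23 were kept. Cish, a STAT5 target that damps the receptor, was at 0 to 9.24 (median 0.11) in Flvcr-deleted and 0 to 5.64 (median 0) in EPO-treated cells. It was detected in 6 of 16 (37.5%, 15.2% to 64.6%) and 2 of 11 cells (18.2%, 2.28% to 51.8%), and was listed at 0 in all 10 wild-type cells. The difference was 1.18 and the intervals overlapped. Fam132b, erythroferrone, an EPO-induced hormone that lowers hepcidin, was detected in 3 and 1 cells and was not kept. Ccnd3, the cyclin that EPO signalling supports in erythroblasts, was lower by 3.09, from 0 to 7.84 (median 0) against 0.12 to 8.08 (median 5.69). Among cells with a globin share of 45% to 85% it differed by 0.50.

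Genes higher in Flvcr-deleted cells were fewer, and among them were 2 antioxidant and 2 autophagy genes. Gclm, the modifier subunit of the enzyme that starts glutathione synthesis, was at 0 to 8.14 (median 5.41) against 0 to 6.04 (median 1.50). It was detected in 14 of 16 and 6 of 11 cells and differed by 2.96 (4.84 ± 2.29 against 1.88 ± 2.10, SD). The groups overlapped over the whole EPO-treated range. Wild-type cells were at 0.98 to 7.37 (median 4.47), nearer to the Flvcr-deleted cells. Of 15 kept antioxidant genes of 25, 2 (Gclm and Prdx1, 13.3% against 0.965% of all kept genes) were higher by at least 2, none was lower by at least 2 (10.5% of all kept genes were), and the median was 0.67. Prdx1, a peroxiredoxin that removes peroxide, differed by 2.41 in means but by -0.44 in medians, and 4 EPO-treated cells lay at 0, cells 8, 12 and 23 among them. Without EPO-treated cell 1 Prdx1 differed by 1.94, and without the 4 Flvcr-deleted cells with Alas2 at 0 by 1.86. Without EPO-treated cells 8, 12 and 23 Prdx1 differed by 0.66, Gclm by 2.66 and the median of the list was -1.03. Without the 4 Flvcr-deleted cells that median was 0.10.

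The antioxidant-type motif TGACNNNGC, read on both strands in the same 250 bases, was in 3 of 12 antioxidant genes with an entry (25.0%), in 16.5% of kept genes and in 11.5% of all genes in the promoter table. Replication genes, which lay the other way, held it in 8 of 35 (22.9%), so it was not particular to the antioxidant list. Gclm is shown because its difference held in every choice of cells below. The stretch is chr3:122245307-122245556 on the plus strand and its match, on the opposite strand, spans the capitals.
Gclm: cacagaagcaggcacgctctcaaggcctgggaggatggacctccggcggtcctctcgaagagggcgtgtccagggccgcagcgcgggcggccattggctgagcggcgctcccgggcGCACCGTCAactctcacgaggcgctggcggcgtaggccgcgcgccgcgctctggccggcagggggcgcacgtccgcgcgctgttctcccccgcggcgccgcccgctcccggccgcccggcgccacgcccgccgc

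Ypel5, a small protein of a conserved family, was at 0 to 8.86 (median 6.83) against 0 to 6.37 (median 2.34), a difference of 3.29. Rsrp1, an arginine- and serine-rich protein, was at 2.06 to 10.03 (median 6.97) against 0 to 8.68 (median 3.51), a difference of 3.18. Both were found in more of the Flvcr-deleted cells, with overlapping ranges. Cript, a protein first known from synapses, was detected in 10 of 16 cells (62.5%, 35.4% to 84.8%) and in 1 of 11 (9.09%, 0.23% to 41.3%), and differed by 3.82. Wild-type cells held it in 8 of 10, so for Cript the EPO-treated cells were the group that stood apart. Cyb5r1, of the cytochrome b5 reductase family, was detected in 11 of 16, 1 of 11 and 0 of 10 cells, so there the Flvcr-deleted cells did. BC002163 was listed at 0 in all 31 EPO-treated cells of every class and is given apart, without a rank.

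Autophagy genes had 18 kept members of 43 and a median of 0.18, which was -0.03 without the 4 Flvcr-deleted cells with Alas2 at 0 and -0.96 without EPO-treated cells 8, 12 and 23. Gabarap and Gabarapl2, which coat the membranes of autophagosomes, were higher by 2.46 and 2.23, and Fbxo7, a ubiquitin ligase subunit, was lower by 2.87. These were the only members past 2: 11.1% higher (0.965% of all kept genes) and 5.56% lower (10.5% of all kept genes). Below 0 lay 8 of the 18. Gabarap was at 0.32 to 8.48 (median 6.19) against 0 to 8.17 (median 3.77). Without EPO-treated cells 8, 12 and 23, all at 0, Gabarap differed by 1.20. Gabarapl2 differed by 1.38 without those 3 cells and by 1.94 without Flvcr-deleted cell 44. Nupr1, a stress-response gene, was detected in 8 of 16 (50.0%, 24.7% to 75.3%) and 1 of 11 cells, was listed at 0 in all wild-type cells, and differed by 1.89. The metallothioneins Mt1 and Mt2, which bind metal ions, differed by 0.61 and 1.64. Mt2 was at 9.51, 8.15, 9.76 and 9.99 in Flvcr-deleted cells 7, 13, 16 and 40, the 4 with Alas2 at 0, and at 10.03 in cell 32.

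Housekeeping lists divided, and the share of members lower by at least 2 is given against the 10.5% of all kept genes. The proteasome, complexes II to V, ribosomal proteins and mitochondrial ribosomal proteins (3 of 50, 6%) did not exceed that share. Heat shock proteins (21 kept) had a median of -1.36 with 6 lower by at least 2 (28.6%), among them Hsp90ab1 (-3.41) and Hsp90aa1 (-3.20), the cytosolic HSP90 chaperones. Translation factors (48 kept, median -1.11) had 7 lower (14.6%), splicing factors (44 kept, median -0.97) had 10 (22.7%), and the proteasome (40 kept, median -1.05) had 4 (10.0%). Ribosomal proteins lay the other way: 53 of 83 kept members were above 0, the median was 0.34, 1 was lower by at least 2 (Rpl8, -2.43, 1.20% of the list) and none was higher by at least 2. Respiratory complex I had 6 lower (15.8%) and 1 higher (2.63%) of 38, led by Ndufa10 (-3.55). Complexes II to V had 4 lower (10.0%) and 3 higher of 40 (7.50%, against 0.965% of all kept genes).

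**Figure D3:**
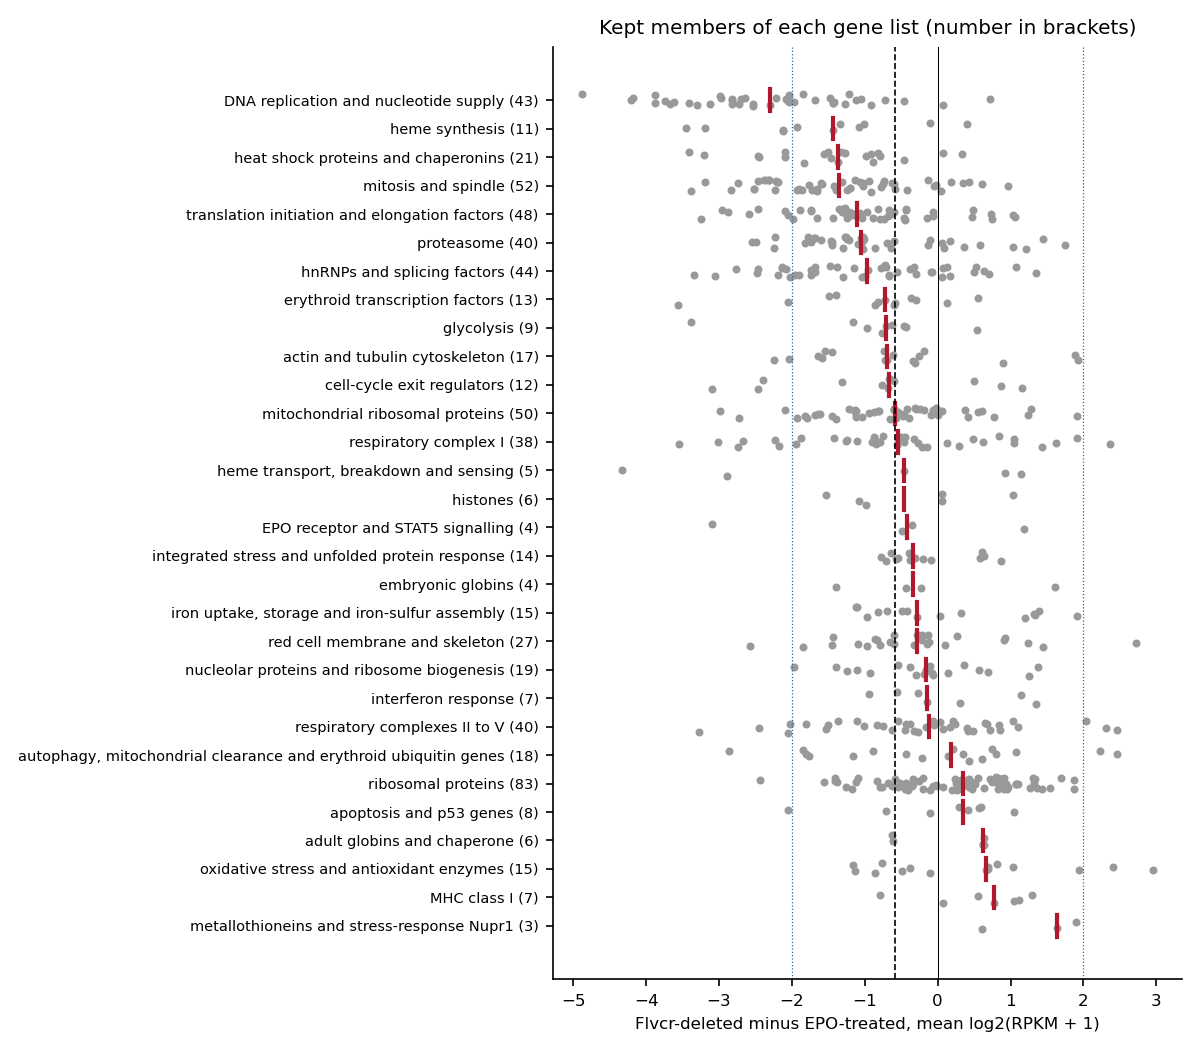
Difference of each kept gene (grey points, log2) in the lists with at least 3 kept members; red bars are list medians, the dashed line is the median of all kept genes (-0.59) and dotted lines mark differences of 2. The list of DNA replication and nucleotide supply has the lowest median (-2.30), with 27 of 43 members left of the dotted line.

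These housekeeping medians depended on which cells were compared. Without EPO-treated cells 8, 12 and 23 the median of the ribosomal proteins was -0.78, that of complexes II to V -1.39 and that of the proteasome -1.75. Against those 3 cells alone the same medians were 3.41, 3.18 and 1.47. Without the 4 Flvcr-deleted cells with Alas2 at 0 they were -0.12, -1.01 and -1.83, the heat shock median was -2.44 and Hsp90ab1 differed by -5.24. Among cells with a globin share of 45% to 85% they were 2.28, 1.85 and 0.59. The splicing factor median was below 0 in these choices except against EPO-treated cells 8, 12 and 23 alone, where it was 0.38. Of all kept genes, 638 were lower by at least 2 without the 3 cells and 12 were higher. Without the 4 Flvcr-deleted cells with Alas2 at 0, 549 were lower and 30 were higher. In cells with a globin share of 45% to 85%, 266 were lower and 513 were higher.

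**Figure D4:**
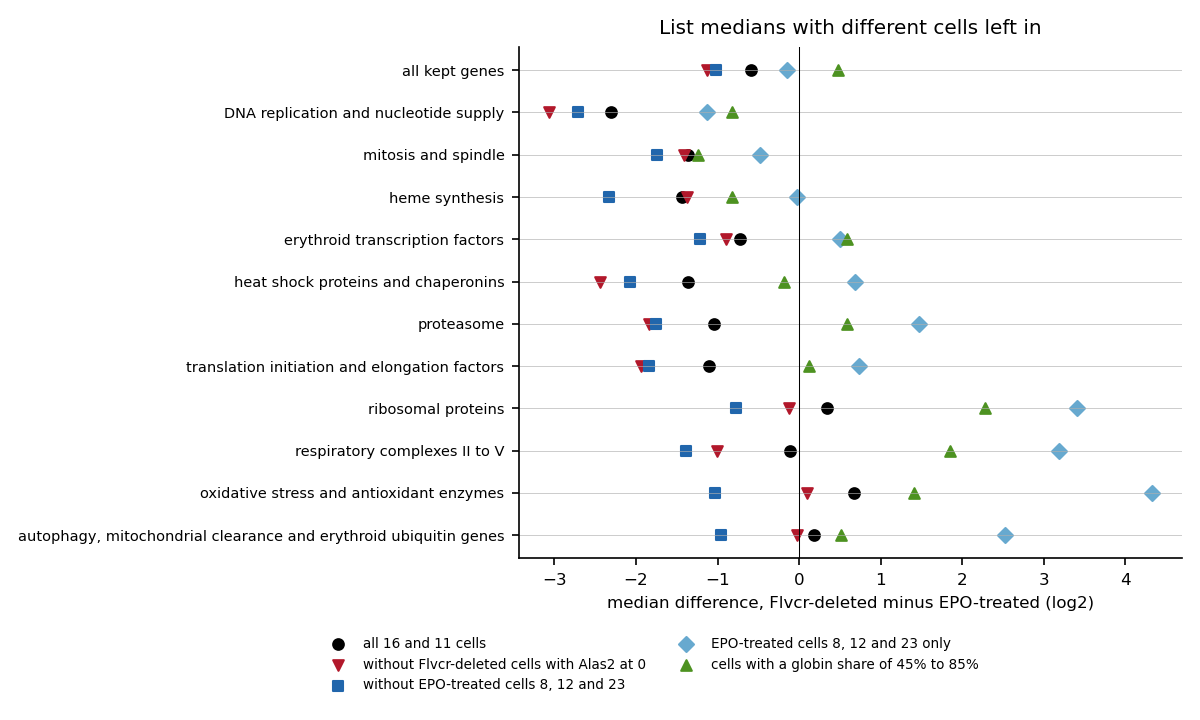
Median difference (log2) of all kept genes and of 11 lists, with all cells and with 4 other choices of cells. The replication, mitosis and heme synthesis lists stay below 0 in all 5 choices, heme synthesis only just (-0.02) against EPO-treated cells 8, 12 and 23 alone. The other lists lie on both sides of 0.

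The mean level of the replication list was 1.52 ± 1.25 in Flvcr-deleted, 3.54 ± 1.35 in EPO-treated and 4.64 ± 1.44 in wild-type class B cells (SD over cells). Label prefixes did not cross the groups (SCP2 in Flvcr-deleted, SCP7 or SCP6 in EPO-treated, SCP3 in wild-type cells), and the values of EPO-treated cells were given with at most 2 decimals, unlike the others. Group, prefix and any separate processing cannot be told apart. The normalized Ter119 value, the fluorescence of a surface antigen of maturing red cells, was 0.313 to 0.494 in Flvcr-deleted and 0.000640 to 0.197 in EPO-treated class B cells, so the same letter did not stand for the same value.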

How the data were processed

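The data were single marrow cells isolated on a microfluidic device, imaged for Ter119 and sequenced from amplified cDNA, per the labels' protocols. The authors deposited 1 table of RPKM values, 34898 transcript rows for 24320 symbols, in which 4 columns matched no sample and stayed out. The submitters' processing notes name TopHat2 2.0.9 and the build mm9. The read depth is unknown, and no source used here names the counting tool; the first percentile of RPKM times transcript length (GENCODE vM21 lengths, found for 97.6% of rows) stands in for the depth.

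Each gene was 1 symbol, with the row of the highest mean of both group means where there were several (5556 symbols). Deposited RPKM values were turned to log2 with a pseudocount of 1. Shares have exact (Clopper-Pearson) 95% intervals. With 1 sample per group no test was run. Doublets were not called. Python 3.11.15, numpy 2.4.6, pandas 2.3.3 and scipy 1.17.1 were used. The calculation of differences was tested on values redrawn from the EPO-treated cells, with shifts added to some genes of high level. Low genes and the other steps were not tested in this way.

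Named genes were the 15 largest differences in each direction past 2 that were detected in 50% or more of the cells of the higher group, a chosen set of heme, globin, EPO and stress genes, and from each list the 4 members that differed most in either direction. Mcm5, Mcm6, Car2, Rhag, Epb4.2 and Slc4a1 fall outside that rule and were chosen after their values were seen. The members and the 39 lists (31 of pathways, 8 of markers) were chosen with earlier results of these data known. Of 4 motifs searched, the GATA-type AGATAA and KLF-type CACACCC are not shown. AGATAA was in 0 of 35 replication, 0 of 12 antioxidant, 1 of 9 heme synthesis (11.1%) and 2 of 11 erythroid factor promoters (18.2%), against 6.87% of kept genes, and CACACCC in 3 (8.57%), 2 (16.7%), 1 (11.1%) and 4 (36.4%), against 8.17%. Alternatives were other pseudocounts, filters, rows, scalings and sets of cells. Those on the globin share, on EPO-treated cell 28 and on EPO-treated cells 8, 12 and 23 were chosen after seeing the data.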

Additional observations from a re-analysis of the deposited data

Results flagged for a closer look

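Tmem14c in wild-type class B cells had 1 cell far from the other 9, at 6.24, the lowest value of the group. Of 14 measures looked at in the 10 wild-type cells this was the only 1 with such a gap, and chance gives about 1 in 20. The groups of 16 and 11 cells were not looked at in this way.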

How the results depend on the processing

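The 26 genes higher and 283 genes lower by at least 2 depended on scale, threshold and cells. They were 77 and 683 with a pseudocount of 0.1, 3 and 29 with 10, 15 and 146 with a filter at a mean of 3, 191 and 920 at a threshold of 1, and 81 and 582 with medians over cells. Genes higher were 17 among symbols with 1 row, 45 with cells scaled to 1 sum without globins (median of all genes -0.55), 92 with cells centred on their median (190 lower, median -0.35), 130 with the ratio of mean RPKM, 41 without the EPO-treated cells of prefix SCP6, and 244 in cells with 1000 to 2000 detected genes. Genes lower were 549 without the Flvcr-deleted cells with Alas2 at 0. Without EPO-treated cells 8, 12 and 23, 12 were higher and 638 lower. Against those 3 alone, 628 were higher and 338 lower. With a globin share of 45% to 85%, 513 were higher, and with 30% to 85% 420. Leaving out 1 cell at a time gave 22 to 44 higher (highest without EPO-treated cell 19), 226 to 389 lower, and a median of -0.71 to -0.45. The median of all kept genes ran from -1.13, without the Flvcr-deleted cells with Alas2 at 0, to 0.48 and 0.38 with both globin ranges, where its direction turned.

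Of genes past 2 and lists with a median past 1, directions turned in the cases below among others, and the cause was not tested. Of the 79 genes past 2 that the naming rule chose, 12 of 78 turned with a globin share of 45% to 85%. With 30% to 85% 6 of 78 turned, and against EPO-treated cells 8, 12 and 23 alone 9 of 73 did. With medians over cells Prdx1 was at -0.44, and without the Flvcr-deleted cells with Alas2 at 0 the metallothionein and Nupr1 list was at -0.22. In cells with 1000 to 2000 detected genes Cdca3 was at 0.30 and Ccne2 at 0.08. With a globin share of 45% to 85% (or 30% to 85%), the proteasome list was at 0.59 (0.57), Ccnd3 at 0.50 (0.13), Gata1 at 2.52 (1.60) and Tmem14c at 0.37 (0.32); at 45% to 85% only, the translation factor list was at 0.12, Pcna at 0.089 and Rpl8 at 0.15. Against EPO-treated cells 8, 12 and 23 alone, the heat shock, translation factor and proteasome lists were at 0.68, 0.73 and 1.47, Abcg2 at 0.34, Gata1 at 1.97 and Urod at 2.06. Mrpl18 and Eif3e, at -2.10 and -2.59 with all cells, were at 3.68 and 2.39 against those 3. With a globin share of 45% to 85% Mrpl18 was at 2.34, Ccne2 at 2.10 (-2.47 with all cells) and Hspa8 at 1.97 (-2.45). Smaller medians and differences turned too, these among them. Without the Flvcr-deleted cells with Alas2 at 0 the ribosomal list was at -0.12, the autophagy list at -0.03, Hba-a1 at 2.73, Mt1 at -1.28 and Mt2 at -0.22. Without EPO-treated cells 8, 12 and 23 the ribosomal, antioxidant and autophagy lists were at -0.78, -1.03 and -0.96, Blvrb at -0.52, Alas2 at -0.04 and Mt1 at -0.80. Against those 3 alone, complex I, complexes II to V, the splicing and the erythroid factor lists were at 2.79, 3.18, 0.38 and 0.50, Klf1 at 0.28, Hba-a1 at 0.76 and the heme transport list at 1.20. With a globin share of 45% to 85%, the erythroid factor list was at 0.59, complex I at 1.58, complexes II to V at 1.85, Klf1 at 0.25, Alas2 at -0.10 and Hba-a1 at 0.83.

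The median of the replication list was below 0 in every alternative run, from -3.56 (pseudocount 0.1) to -0.83. No paired analysis was possible because the cell numbers only name cells and no test was made.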
